A study of Saccharomyces cerevisiae with 24 samples.

Results

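The genes described here are 10 genes that bring iron into cells of the budding yeast Saccharomyces cerevisiae, out of 6571 genes in the deposited count tables. They were chosen by name: FIT1, FIT2 and FIT3, ARN1, ARN2, SIT1 and ENB1, and FRE1, FET3 and FTR1. On the sense strand 9 of the 10 had enough counts to be tested, among 5790 genes tested in all, and FIT1 did not, with 1 to 9 counts in a library. On the antisense strand 5 of the 10 were tested, among 3741 genes. RNA was sequenced from 24 libraries, 3 from each of 8 strains, to compare strains altered in the pathway that attaches ubiquitin to histone H2B.

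Each group was 1 strain of mating type MATa with the markers his3Δ200, lys2-128Δ, ura3-52 and trp1Δ63, and its 3 libraries are labelled as biological replicates. The untagged strains were the wild type, rad6Δ with RAD6 replaced by KanMX, and H2B-K123R, in which both H2B genes carry a substitution of the ubiquitylated lysine by arginine. The tagged strains carried 3xHA-RTF1. The tagged wild type, the rtf1-108-110AAA strain and the Rad6 substitution strains rad6-R6A,M10A and rad6-R6Q also carried a 13xMyc tag on Rad6 with the KanMX marker, whereas the tagged rad6Δ strain carried the Rtf1 tag alone. Cells were grown in YPD to log phase at an OD600 of 0.8 to 1.0, and 9 parts were mixed with 1 part of Kluyveromyces lactis cells by OD600 before extraction. Rad6 is the enzyme that conjugates ubiquitin to H2B, and Rtf1, a subunit of the Paf1 complex, stimulates it.

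Yeast takes up iron by separate routes. In the reductive route, the surface reductase Fre1 reduces ferric iron, and the multicopper oxidase Fet3 passes it on to the permease Ftr1. In the siderophore route, the transporters Arn1, Arn2, Sit1 and Enb1 import iron bound to siderophores, which are small iron chelators secreted by microbes, and the mannoproteins Fit1, Fit2 and Fit3 hold siderophore iron in the cell wall. When iron is scarce, the transcription factor Aft1 is known to activate these genes from promoter sites with the core CACCC, and the glutaredoxins Grx3 and Grx4 are known to hold Aft1 inactive when iron is sufficient.

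Sense totals were 7227245 to 10782960 counts per library and antisense totals 411344 to 611282. The deleted gene RAD6 had 0 to 1 counts in the 6 rad6Δ libraries and 357 to 1587 in the other 18. The level of a gene is given below as CPM, the usual depth-normalised count, relative to the sense total after TMM scaling, and levels of different genes are compared only as CPM per kb of gene. In such libraries a lower CPM in fewer cells cannot be told apart from less RNA per cell.

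The 10 genes lie on 6 chromosomes of the R64 assembly, and none overlapped another gene of the RefSeq annotation. ARN2 (YHL047C, VIII 8351 to 10213), ENB1 (YOL158C, XV 19491 to 21311), ARN1 (YHL040C, VIII 19088 to 20971), FIT1 (YDR534C, IV 1503314 to 1504900) and SIT1 (YEL065W, V 27657 to 29543) lay 8.3 to 27.7 kb from a chromosome end. These 5 of 10 compare with 6.53% of all 5897 annotated genes within 30 kb of an end. FIT2 (YOR382W, XV 1059531 to 1059992) and FIT3 (YOR383C, XV 1060441 to 1061055) were neighbours that point at each other across 448 bases. FTR1 (YER145C, V 460526 to 461740), FET3 (YMR058W, XIII 388822 to 390732) and FRE1 (YLR214W, XII 568567 to 570627) lay 115.1 to 507.6 kb from the nearest end. The longest match to another gene was ARN1 with ARN2, at 64.41% identity over 1332 bases, FIT1 and FIT3 shared 74.01% over 404 bases, and none of the 10 had a near-identical copy.

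The 500 bases upstream of each start codon were searched on both strands for the Aft1-type motif TGCACCC and for the shorter GCACCC and CACCC that it contains. TGCACCC was present upstream of 9 of the 10 genes, all but FRE1, compared with 2.36% of 5895 promoters of the same length. GCACCC was present in the same 9, compared with 7.74% of promoters, and CACCC in all 10, compared with 33.77%. The 9 genes held 20 matches to GCACCC in all, 16 of them preceded by T, with 5 upstream of FIT2 and 1 each upstream of ARN1, ARN2 and SIT1. A match describes the letters in this window and is not evidence of binding. The windows below show 1 match each for the 4 transporters, for FET3 and for FTR1, because it is among these that sense RNA changed most often or, for SIT1, did not. They run 5′ to 3′ on the strand of the gene, from the RefSeq R64 sequence. The capitals mark GCACCC or, where the match is on the opposite strand, its reverse complement GGGTGC.
FET3: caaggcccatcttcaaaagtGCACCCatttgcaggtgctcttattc
FTR1: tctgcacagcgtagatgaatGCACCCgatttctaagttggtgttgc
ARN1: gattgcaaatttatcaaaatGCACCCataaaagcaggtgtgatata
ARN2: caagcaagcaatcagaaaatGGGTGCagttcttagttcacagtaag
SIT1: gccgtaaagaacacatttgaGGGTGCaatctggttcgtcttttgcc
ENB1: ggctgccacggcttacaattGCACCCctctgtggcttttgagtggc

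The FET3 window was chrXIII:388552-388597 on the plus strand, with the motif starting 250 bases before the start codon, position -250. The FTR1 window was chrV:461889-461934 on the minus strand (-174) and the SIT1 window chrV:27449-27494 on the plus strand (-188). The ARN1 window was chrVIII:21205-21250 (-259), the ARN2 window chrVIII:10635-10680 (-447) and the ENB1 window chrXV:21422-21467 (-136), all 3 on the minus strand. ENB1 held another match 56 bases farther from its start codon, at -192. On the opposite strand, FTR1 held another match at -365 and FET3 another at -380, the latter not preceded by T.

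**Figure D1:**
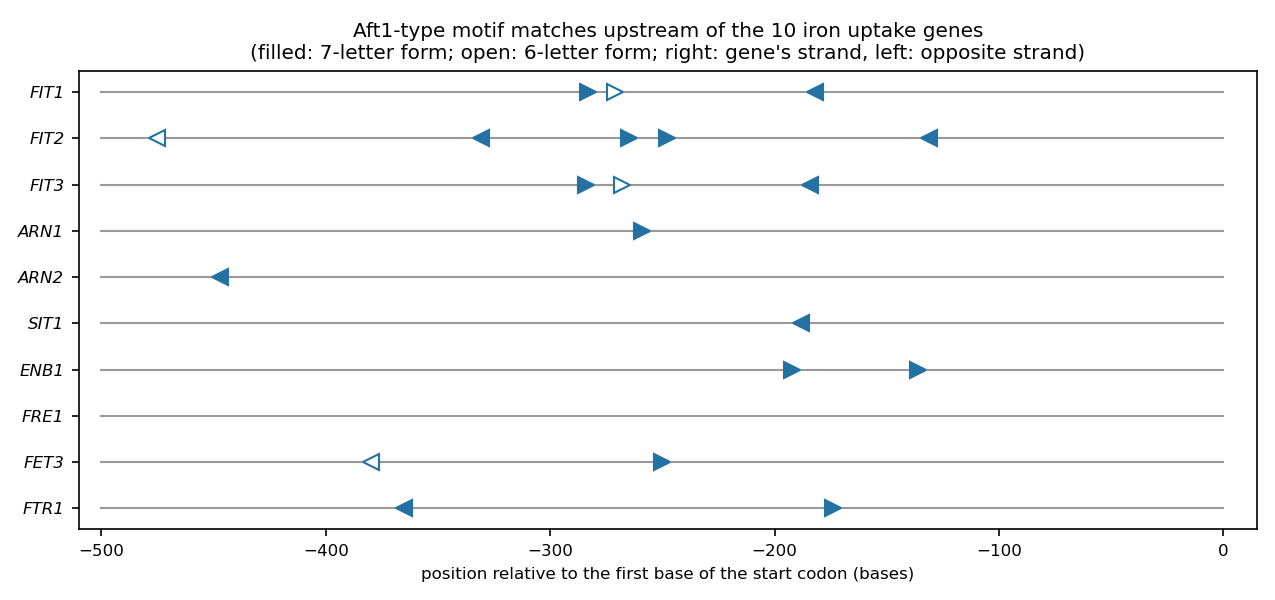
Matches to the Aft1-type motif in the 500 bases upstream of the 10 iron uptake genes, by distance from the start codon in bases. Filled marks are the 7-letter form and open marks the 6-letter form, pointing right on the strand of the gene and left on the opposite strand; 9 of the 10 genes hold at least 1 filled mark and FRE1 holds none.

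In the wild type the reductive route and the transporters made up nearly all sense reads of these genes. In the untagged wild type FET3 stood highest, at 661 CPM per kb, followed by ENB1 at 204, SIT1 at 149.7, FTR1 at 106, FRE1 at 97.9, ARN1 at 54.8 and ARN2 at 23.01 CPM per kb (means of 3). FTR1 and FRE1 did not differ beyond their spread, and they stood in the other order in the tagged wild type, at 85.2 and 86.0 CPM per kb. The FIT genes were far lower, at 8.27 CPM per kb for FIT2, 1.30 for FIT3 and 0.308 for FIT1. The 10 genes together made 1609 to 2766 CPM in the 6 wild-type libraries and 904 to 1687 CPM in the 18 mutant libraries, and FET3 made 44.67 to 55.31% of that sum in wild type and 23.31 to 53.75% in mutants.

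**Figure D2:**
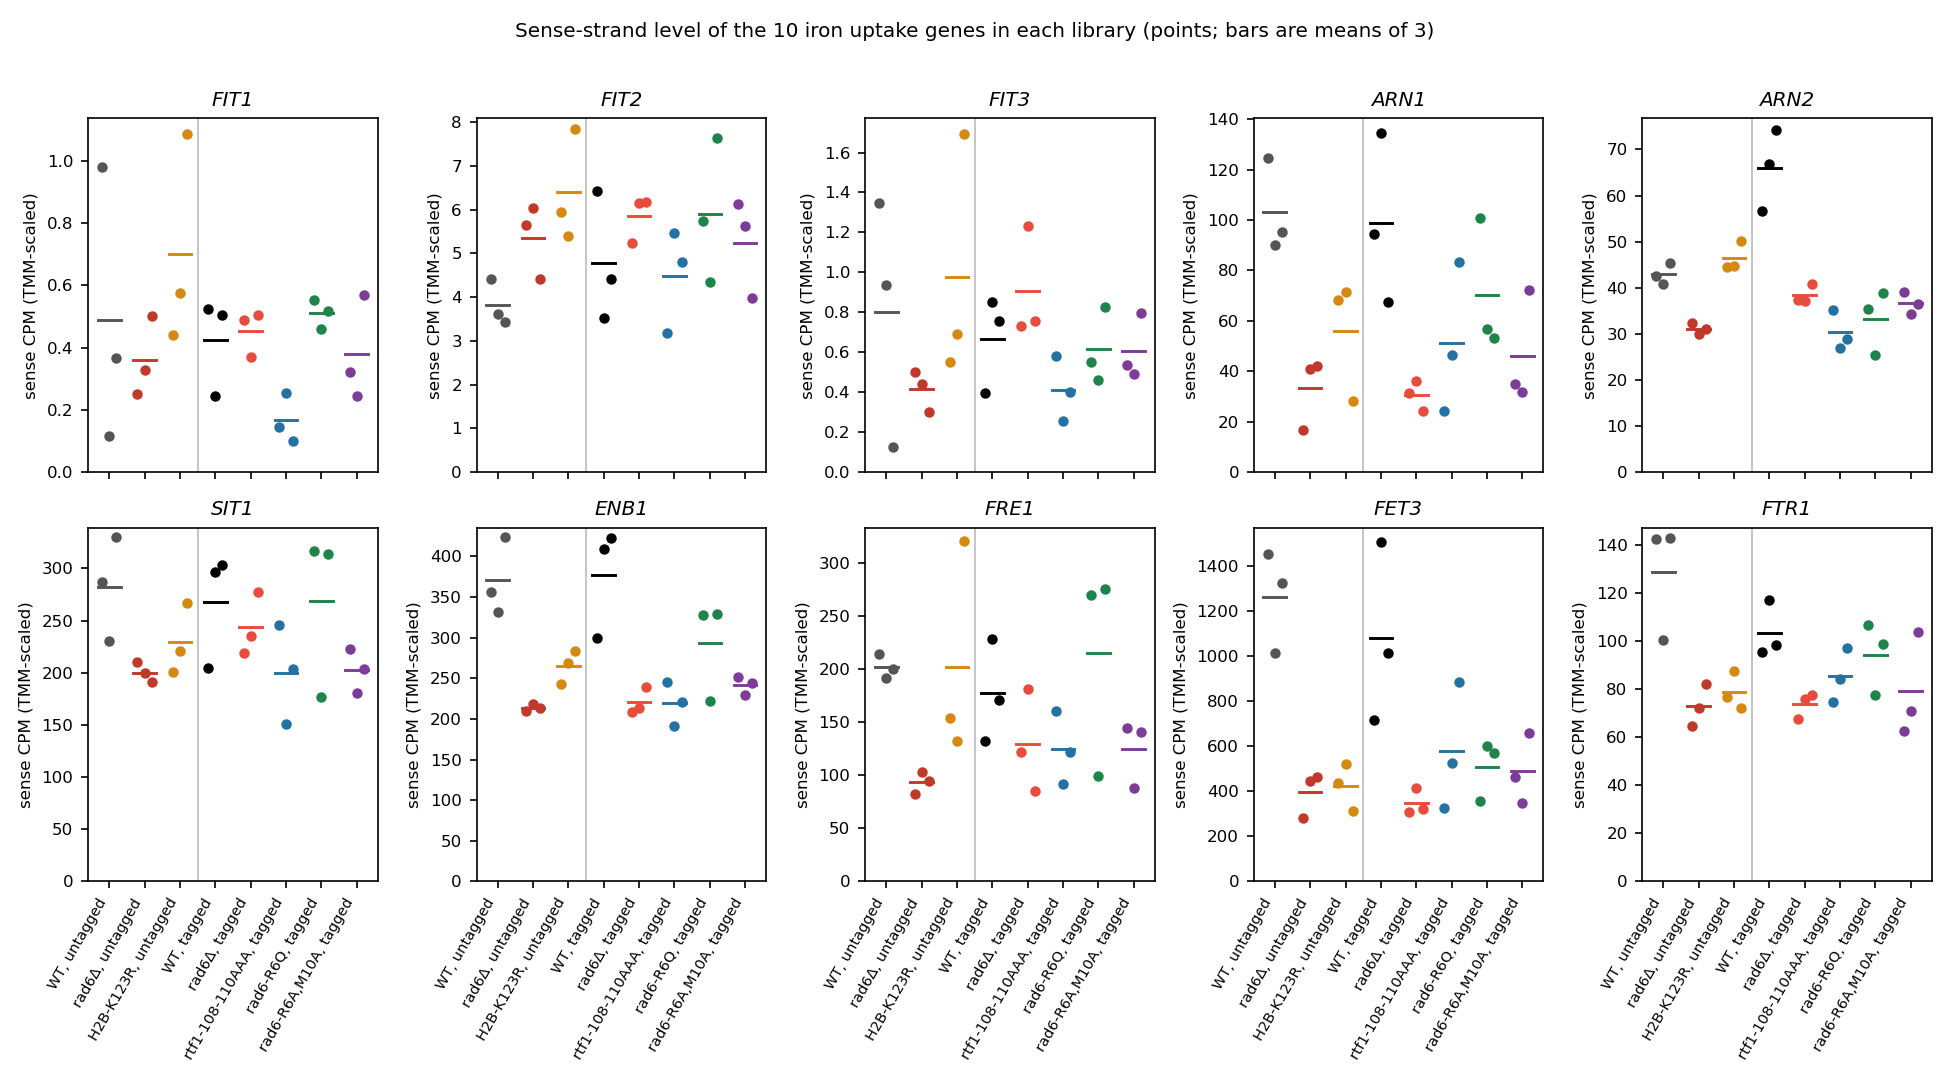
Sense CPM of each of the 10 iron uptake genes in all 24 libraries, with the untagged strains left of the grey line and the tagged strains right of it. Points are libraries and bars are means of 3; FET3 lies between 719 and 1508 CPM in the wild types and between 283 and 884 CPM in the mutants.

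The number of iron uptake genes called lower than in wild type ran from 6 of 9 in untagged rad6Δ to 2 of 9 in rad6-R6Q and rtf1-108-110AAA. A gene was called when its adjusted p, from edgeR's quasi-likelihood test with Benjamini-Hochberg adjustment over all 5790 genes, was under 0.05. In tagged rad6Δ, 5 of the 9 tested genes fell and none rose, where 41.7% of all genes were called and 20.2% were called lower. In untagged rad6Δ, 6 of the 9 fell, where 42.8% of all genes were called and 20.5% called lower. In H2B-K123R 3 fell and 1 rose, against 26.3% of all genes called and 12.3% called lower. In rad6-R6A,M10A 3 fell (25.2% of all genes called, 13.2% lower). In both rad6-R6Q (29.1% called, 14.5% lower) and rtf1-108-110AAA (24.5% called, 12.6% lower) 2 fell. As a share of the 9, that lay between the shares of all genes called lower and called in either direction, and the count is read as no result.

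Of 54 values, for 9 genes in 6 mutants, 21 were called lower, 1 was called higher and 32 were not called. Over all tested genes, 12.3 to 20.5% were called lower, depending on the mutant. The members' median log2 fold change was -0.49 in tagged rad6Δ, -0.82 in untagged rad6Δ, -0.51 in rad6-R6A,M10A, -0.14 in rad6-R6Q, -0.71 in rtf1-108-110AAA and -0.30 in H2B-K123R. The medians of all tested genes lay between -0.0193 and 0.0204 in these comparisons. The 4 mutants with a tag share the tagged wild-type libraries as controls, and the untagged rad6Δ and H2B-K123R strains share the untagged ones, so that a library that stands apart there moves several comparisons at once. Scaling to the K. lactis counts in place of TMM brought the median log2 value of all genes to between 0.123 and 0.254 in 5 mutants and to -0.089 in H2B-K123R. No called member changed direction with it, but several calls were lost. These were FTR1 in tagged rad6Δ, ARN2 and FRE1 in untagged rad6Δ, FIT2 in H2B-K123R, and FET3 in rad6-R6Q and rad6-R6A,M10A.

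**Figure D3:**
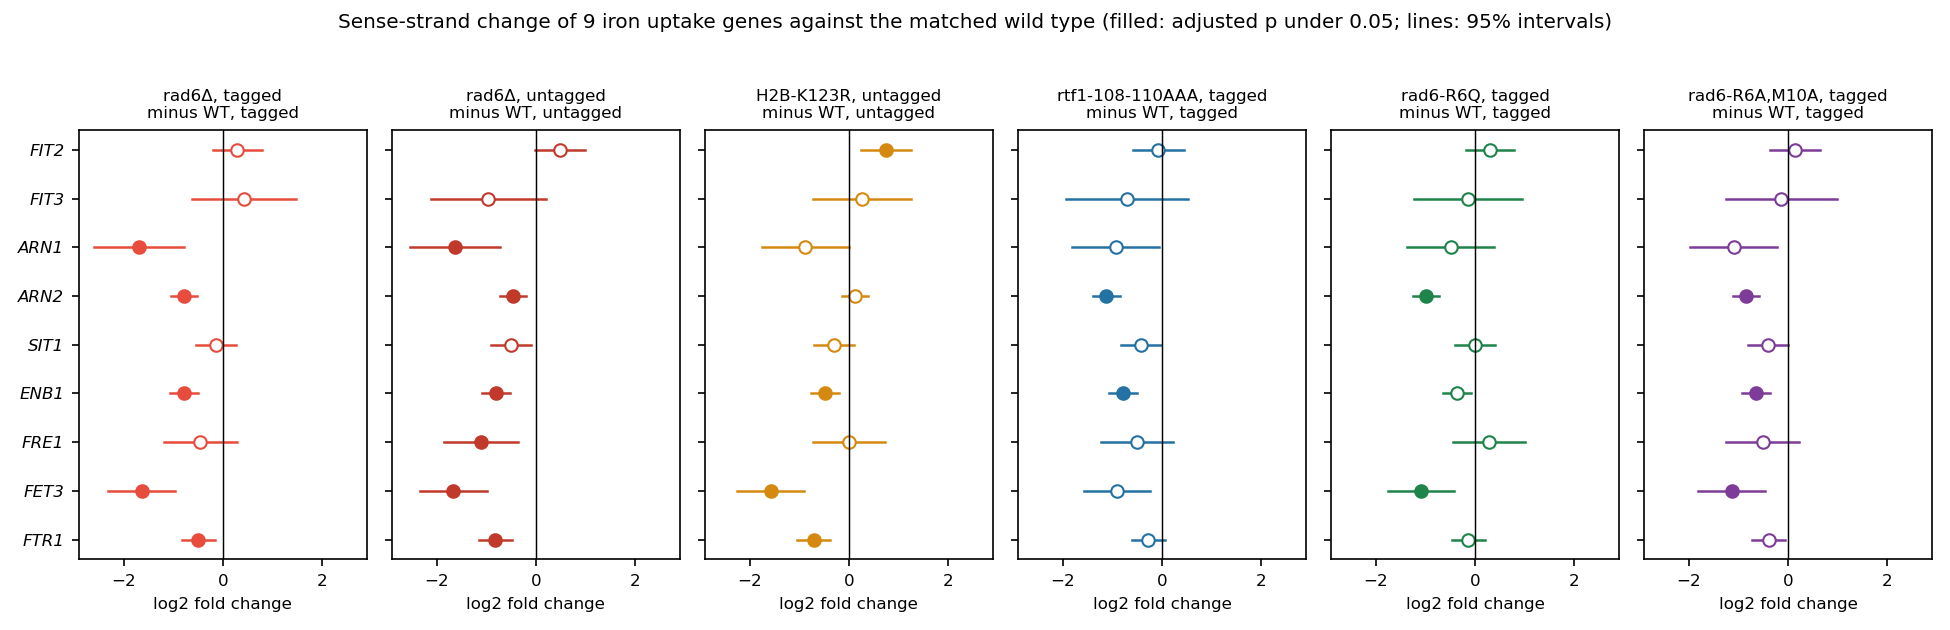
Log2 fold change of 9 iron uptake genes on the sense strand in each of 6 mutants against the matched wild type, with 95% intervals as lines. Filled circles are genes called at an adjusted p under 0.05: FET3 is filled and left of 0 in 5 of 6 panels, whereas FIT3 and SIT1 are open in all 6.

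Of the cell wall genes, FIT2 was called higher in 1 mutant, FIT3 was called in none and FIT1 was not tested. FIT2 was at 4.42, 3.62 and 3.43 CPM in the untagged wild type and at 5.95, 5.41 and 7.86 CPM in H2B-K123R. Every H2B-K123R library lay above every wild-type one, and FIT2 rose by log2 0.74 ± 0.26 (SE; edgeR adjusted p 0.0367). The call rests on 28 to 65 counts per library and was lost without untagged wild-type replicate 2 (0.70, adjusted p 0.0945) or 3 (0.67, 0.113), without H2B-K123R replicate 1 (0.79, 0.0581) or 3 (0.57, 0.161), and with K. lactis scaling (0.66, 0.0601). In the other 5 mutants FIT2 was not called, with log2 values from -0.08 to 0.48, although unstranded counts gave a call in untagged rad6Δ (0.69, adjusted p 0.014). FIT3 had 1 to 14 counts in a library and was called in none of the 6 mutants, with log2 values from -0.95 to 0.43; without untagged wild-type replicate 3, at 1 count, it was called lower in untagged rad6Δ (-1.45, adjusted p 0.0292). FIT1 was at most 1.09 CPM in any library, with wild-type libraries at 0.117 to 0.981 CPM and mutants at 0.1003 to 1.09 CPM.

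Of the siderophore transporters, ENB1 and ARN2 were lower in 5 of 6 mutants each, ARN1 in both deletions, and SIT1 in none. ENB1, the enterobactin transporter, was at 299, 409 and 423 CPM in the tagged wild type and at 209, 214 and 239 CPM in tagged rad6Δ. It was at 357, 332 and 423 CPM in the untagged wild type, at 209, 218 and 214 CPM in untagged rad6Δ and at 243, 269 and 284 CPM in H2B-K123R. In these 3 mutants no library reached the lowest wild-type one, and ENB1 fell by log2 0.77 ± 0.14, 0.79 ± 0.14 and 0.48 ± 0.14 (SE; edgeR adjusted p 0.000172, 0.000126 and 0.0155). ENB1 was at 245, 191 and 221 CPM in rtf1-108-110AAA and at 252, 229 and 244 CPM in rad6-R6A,M10A, again below every tagged wild-type library, and fell by log2 0.78 ± 0.14 and 0.64 ± 0.14 (adjusted p 0.000399 and 0.00236). In rad6-R6Q, at 328, 222 and 329.7 CPM, replicates 1 and 3 lay within the wild-type range, and the change of -0.36 was not called (adjusted p 0.0586). With the replicate number as a block it was called (-0.37, adjusted p 0.0388), as it was without tagged wild-type replicate 1 (-0.51, 0.0146), rad6-R6Q replicate 1 (-0.45, 0.0399) or replicate 3 (-0.46, 0.0399), by DESeq2 (-0.37, 0.0459) and with unstranded counts (-0.38, 0.0431); with K. lactis scaling it was -0.15 (0.459). The ENB1 call in H2B-K123R was lost without untagged wild-type replicate 3 (-0.37, 0.0935) or H2B-K123R replicate 1 (-0.42, 0.0731).

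ARN2 imports the siderophore triacetylfusarinine C. It was at 56.6, 66.7 and 74.3 CPM in the tagged wild type and at 37.2, 37.0 and 40.7 CPM in tagged rad6Δ. It was at 39.1, 34.4 and 36.3 CPM in rad6-R6A,M10A, at 35.3, 25.4 and 38.9 CPM in rad6-R6Q and at 35.1, 26.96 and 28.8 CPM in rtf1-108-110AAA. All 12 libraries of the tagged mutants lay below every tagged wild-type library. ARN2 fell by log2 0.78 ± 0.14 in tagged rad6Δ, 0.85 ± 0.14 in rad6-R6A,M10A, 0.99 ± 0.14 in rad6-R6Q and 1.12 ± 0.14 in rtf1-108-110AAA (SE; edgeR adjusted p 8.21e-05, 9.6e-05, 1.4e-05 and 5.76e-06). ARN2 was at 42.4, 40.9 and 45.3 CPM in the untagged wild type, at 32.2, 29.9 and 31.1 CPM in untagged rad6Δ and at 44.5, 44.8 and 50.2 CPM in H2B-K123R. Every tagged wild-type library lay above every untagged one, a difference taken up below. The falls in tagged and in untagged mutants are thus measured from different control levels. The rad6Δ libraries were all below wild type, with a fall of log2 0.46 ± 0.14 (adjusted p 0.00888; -0.34 and 0.0571 with K. lactis scaling), and the H2B-K123R libraries overlapped the wild type (0.12, adjusted p 0.567). ARN2 had 9.38% fewer counts in the table that ignores strand than on both strands together, although no other RefSeq gene overlaps it; whether the annotation the authors counted with holds a further feature there is not given in the sources used here.

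ARN1, a ferrichrome transporter, varied more between replicates. It was at 94.5, 134 and 67.6 CPM in the tagged wild type and at 31.4, 36.0 and 24.2 CPM in tagged rad6Δ. It was at 125, 90.1 and 95.1 CPM in the untagged wild type and at 16.8, 40.9 and 41.9 CPM in untagged rad6Δ. Neither deletion overlapped its wild type, and ARN1 was 3.24-fold and 3.10-fold lower (log2 -1.69 ± 0.46 and -1.63 ± 0.46, SE; edgeR adjusted p 0.00672 and 0.00761). In H2B-K123R, at 68.2, 71.6 and 28.3 CPM, every library lay below wild type, but ARN1 was not called (log2 -0.88 ± 0.45, adjusted p 0.159). The log2 values of -1.10 in rad6-R6A,M10A, -0.49 in rad6-R6Q and -0.94 in rtf1-108-110AAA were not called either. Replicate 3 of rtf1-108-110AAA and of rad6-R6A,M10A, at 83.2 and 72.1 CPM, were the highest of their groups, and without them ARN1 was called (-1.48, adjusted p 0.0384, and -1.58, adjusted p 0.0321).

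SIT1, the ferrioxamine B transporter, was at 205, 297 and 303 CPM in the tagged wild type and at 287, 231 and 329.8 CPM in the untagged wild type. The mutant libraries lay between 151 and 316 CPM and overlapped the matched wild type in 5 of 6 comparisons. In untagged rad6Δ the 3 libraries, at 209.8, 199 and 191 CPM, all lay below wild type, with a log2 value of -0.50 ± 0.20 that was not called (edgeR adjusted p 0.0551). It was called without untagged wild-type replicate 2 (-0.63, 0.0301), with only the 2 compared groups in the fit (-0.50, 0.00393), by DESeq2 (-0.50, 0.0379) and with unstranded counts (-0.52, 0.0393).

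In the reductive route FET3 had the lowest log2 values, and it was called lower in 5 of 6 mutants. FET3 was at 1453, 1013 and 1324 CPM in the untagged wild type, at 283, 447 and 464 CPM in untagged rad6Δ and at 435, 522 and 314 CPM in H2B-K123R. In the tagged strains it was at 719, 1508 and 1015.5 CPM in the wild type and at 307, 414 and 323 CPM in rad6Δ. All 9 of these mutant libraries lay below every wild-type library, and FET3 was 3.18-fold lower in untagged rad6Δ, 2.98-fold lower in H2B-K123R and 3.11-fold lower in tagged rad6Δ (log2 -1.67 ± 0.35, -1.58 ± 0.34 and -1.63 ± 0.35, SE; edgeR adjusted p 0.00071, 0.00224 and 0.000861). In the tagged substitution mutants FET3 was at 357, 600.1 and 569 CPM in rad6-R6Q, at 462, 349 and 660.0 CPM in rad6-R6A,M10A and at 326, 527 and 884 CPM in rtf1-108-110AAA. The first 2 lay below all tagged wild-type libraries and FET3 fell by log2 1.09 ± 0.34 and 1.14 ± 0.34 (adjusted p 0.0219 and 0.0197), whereas replicate 3 of rtf1-108-110AAA overlapped the wild type and the value of -0.90 ± 0.34 was not called (adjusted p 0.0601).

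These 3 FET3 results depended on single libraries. The rad6-R6Q call was lost without tagged wild-type replicate 2 (-0.77, adjusted p 0.128) or rad6-R6Q replicate 1 (-0.89, 0.0981) and with K. lactis scaling (-0.89, 0.073). The rad6-R6A,M10A call was lost without tagged wild-type replicate 2 (-0.82, 0.107) or rad6-R6A,M10A replicate 1 (-1.10, 0.0617) or 2 (-0.95, 0.0875), with K. lactis scaling (-0.91, 0.0692) and with only the compared groups in the fit (-1.14, 0.0642). In rtf1-108-110AAA FET3 was called without tagged wild-type replicate 1 (-1.12, 0.0345) or rtf1-108-110AAA replicate 3 (-1.34, 0.0101). Tagged wild-type replicates 1 and 2 were the lowest and the highest of that group for FET3.

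FTR1, whose product forms the uptake complex with Fet3, fell in both deletions and in H2B-K123R. FTR1 was at 143, 101 and 143 CPM in the untagged wild type, at 64.8, 72.0 and 82.2 CPM in untagged rad6Δ and at 76.8, 87.6 and 72.2 CPM in H2B-K123R. The mutants did not overlap the wild type, and FTR1 fell by log2 0.82 ± 0.17 and 0.71 ± 0.17 (SE; edgeR adjusted p 0.000575 and 0.00378). In the tagged strains it was at 95.4, 117 and 98.3 CPM in the wild type and at 67.6, 75.9 and 77.5 CPM in rad6Δ, a fall of log2 0.49 ± 0.17 (adjusted p 0.0256) with no overlap. That call was lost without tagged wild-type replicate 2 (-0.39, 0.109) or tagged rad6Δ replicate 1 (-0.43, 0.0941) and with K. lactis scaling (-0.31, 0.201). FTR1 was not called in rtf1-108-110AAA (-0.28), rad6-R6A,M10A (-0.39) or rad6-R6Q (-0.13); without rad6-R6A,M10A replicate 3, at 104 CPM, that value became -0.63 (adjusted p 0.0108).

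FRE1, the reductase, was called in untagged rad6Δ alone. It was at 214, 191 and 200.0 CPM in the untagged wild type and at 82.1, 103 and 94.97 CPM in untagged rad6Δ, with no overlap and a fall of log2 1.11 ± 0.38 (SE; edgeR adjusted p 0.0235). The call was lost without untagged wild-type replicate 1 (-1.06, 0.0582), without untagged rad6Δ replicate 1 (-1.02, 0.0749) or 3 (-1.12, 0.0548), and with K. lactis scaling (-0.98, 0.0597). In H2B-K123R, at 154, 132 and 321 CPM, 1 library lay above the wild type and the others below it (0.0045, adjusted p 0.994). In rad6-R6Q, at 269.8, 99.3 and 275 CPM, the libraries lay on both sides of the tagged wild type, which was at 133, 228 and 171 CPM (0.28, adjusted p 0.62). Tagged rad6Δ (-0.45), rtf1-108-110AAA (-0.51) and rad6-R6A,M10A (-0.51) were not called. The effect of the RAD6 deletion on FRE1 in tagged minus untagged strains was 0.65 (95% interval -0.38 to 1.69, adjusted p 0.742), so that a difference between the deletions was not shown.

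On the antisense strand FET3 was called higher in all 6 mutants. SIT1 was called higher in both deletions, and FIT2 and FRE1 in untagged rad6Δ alone. ENB1, the remaining gene that passed the filter, is described below by its counts without a test. FET3 had 42, 39 and 50 antisense counts in the untagged wild type, 148, 137 and 196 in untagged rad6Δ and 168, 166 and 106 in H2B-K123R. It had 44, 38 and 49 in the tagged wild type, 146, 107 and 108 in tagged rad6Δ, 129, 132 and 145 in rad6-R6A,M10A, 104, 139 and 95 in rad6-R6Q and 93, 110 and 149 in rtf1-108-110AAA. Every one of the 18 mutant libraries, at 93 to 196 counts, lay above the 6 wild-type libraries, at 38 to 50. Antisense FET3 rose by log2 1.43 ± 0.19 in tagged rad6Δ, 1.75 ± 0.18 in untagged rad6Δ, 1.67 ± 0.18 in H2B-K123R, 1.49 ± 0.18 in rad6-R6A,M10A, 1.04 ± 0.19 in rad6-R6Q and 1.36 ± 0.19 in rtf1-108-110AAA (SE; edgeR adjusted p from 2.82e-08 to 0.000147). All 6 were called under every alternative tried. As a share of the counts on both strands, pooled over 3 libraries, antisense FET3 went from 0.416% in the untagged wild type to 4.21% in untagged rad6Δ and 3.82% in H2B-K123R, and from 0.502% in the tagged wild type to 4.10% in tagged rad6Δ, 3.04% in rad6-R6A,M10A, 2.17% in rad6-R6Q and 2.26% in rtf1-108-110AAA.

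Antisense ENB1 was scarce, with 1 to 4 counts in the wild-type libraries and 3 to 16 in the mutants, so that it passed the filter on low counts through the mutant libraries, where it is high, and no test of it is given. Its raw counts lay above those of the matched wild type in every mutant library except 1 of rad6-R6A,M10A at 3 counts and 1 of rtf1-108-110AAA at 4. The latter equals the highest tagged wild-type library in counts, and scaled to depth it was at 0.578 CPM against 0.486 CPM. Because the gene was kept through the mutant libraries, this separation from wild type is read as no result. SIT1 had 4 to 11 antisense counts in wild-type libraries and 8 to 25 in mutants. It was called higher in tagged rad6Δ (18, 17 and 13 counts; log2 0.96 ± 0.36, adjusted p 0.0491, or 0.0511 with the replicate block) and untagged rad6Δ (16, 17 and 25 counts; 1.07 ± 0.36, 0.0238). The first was lost without tagged wild-type replicate 2 (0.69, 0.229) or 3 (1.04, 0.0739) or tagged rad6Δ replicate 1 (0.87, 0.133) or 2 (0.91, 0.109), and the second without untagged wild-type replicate 2 (0.72, 0.155) or untagged rad6Δ replicate 3 (0.93, 0.0958). Antisense FIT2 and FRE1 were called in untagged rad6Δ only among the 6 mutants, at log2 1.197 ± 0.33 and 1.55 ± 0.43 (adjusted p 0.00596 and 0.00682). Mean antisense FRE1 was 3.66 CPM in untagged and 3.22 CPM in tagged rad6Δ, against 1.25 and 2.22 CPM in their wild types. Mean antisense FIT2 was 3.26 and 2.23 CPM in these deletions, against 1.41 and 1.28 CPM. Whether the tagged and untagged deletions differ on the antisense strand was not tested.

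Among all tested genes, the share called higher on the antisense strand was 15.3% in tagged rad6Δ, 22.7% in untagged rad6Δ, 10.5% in rad6-R6A,M10A, 9.94% in rad6-R6Q, 11% in rtf1-108-110AAA and 28.8% in H2B-K123R. Apart from ENB1, the genes called higher were FET3 in each of these mutants, SIT1 in both deletions, and FIT2 and FRE1 in untagged rad6Δ. No member was called lower, and FRE1 stood below 0 in rad6-R6Q (-0.27) and rtf1-108-110AAA (-0.06). The genes that passed the filter are not all members and their number is read as no result. Of the untested genes, FTR1 had 14 antisense counts in the tagged wild type and 14 in rad6-R6Q, summed over 3 libraries, and ARN2 had 2 in the untagged wild type and 1 in untagged rad6Δ. ARN1 had 0 to 1 antisense counts beside 536 to 1106 sense counts in the 6 wild-type libraries. Sense FET3 was called lower in 5 of the 6 mutants in which antisense FET3 was called higher, all but rtf1-108-110AAA, and whether the transcripts affect each other was not tested.

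**Figure D4:**
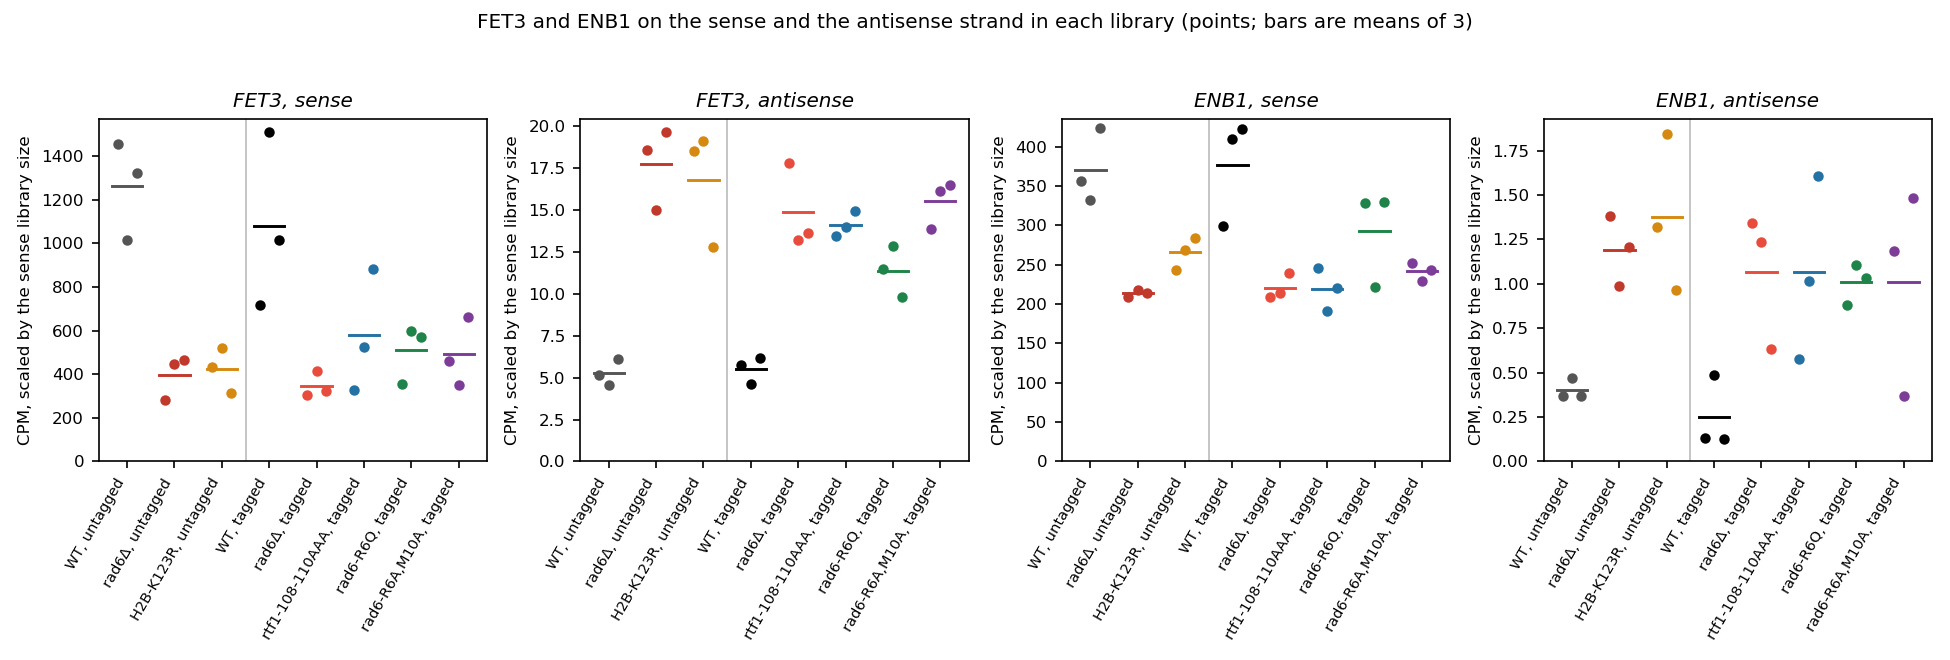
FET3 and ENB1 on the sense and antisense strands in all 24 libraries, in CPM scaled by the sense library size, with untagged strains left of the grey line. Points are libraries and bars are means of 3; all 18 mutant libraries lie above the 6 wild-type libraries for antisense FET3, at 93 to 196 against 38 to 50 counts.

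The tags, the deletions and the substitutions were also compared with each other. Between the tagged and untagged wild types 1 of the 9 genes was called, with 0.674% of all genes called: ARN2 was higher with the tags by log2 0.62 ± 0.13 (SE; edgeR adjusted p 0.0253), and no library overlapped. That call was lost without any of untagged wild-type replicates 1 (0.61, 0.131), 2 (0.59, 0.133) and 3 (0.66, 0.0854) or tagged replicates 2 (0.61, 0.0879) and 3 (0.53, 0.214), and with K. lactis scaling (0.55, 0.0934). No difference in the effect of deleting RAD6 between tagged and untagged strains was called for the 9 genes (0 called by edgeR or DESeq2, and 0 at an unadjusted p under 0.05), where 0.276% of all genes were called. For FET3 the difference between the deletion effects was log2 0.03 (95% interval -0.90 to 0.97) and for ENB1 0.02 (-0.38 to 0.42).

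Between H2B-K123R and untagged rad6Δ, 10.5% of all genes and 1 of the 9 iron uptake genes were called. ARN2, at 44.5, 44.8 and 50.2 CPM against 32.2, 29.9 and 31.1 CPM, was higher in H2B-K123R by log2 0.58 ± 0.14 (SE; edgeR adjusted p 0.00803), with no overlap, and was not called with K. lactis scaling (0.38, 0.0543). FRE1 was also higher in every H2B-K123R library, by 1.11 ± 0.38, but was not called by edgeR (adjusted p 0.067) and was called by DESeq2 (1.13, 0.0305). FET3 differed by 0.09 between these strains, with an interval of -0.57 to 0.75.

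None of the 9 genes was called between a tagged substitution mutant and tagged rad6Δ. For rtf1-108-110AAA, with 14.3% of all genes called, 2 of the 9 had an unadjusted p under 0.05 in edgeR and 0 were called by DESeq2; without rtf1-108-110AAA replicate 1, ARN2 was called lower (-0.46, adjusted p 0.0427) and FET3 higher (1.02, 0.0485). For rad6-R6Q, with 16.4% of all genes called, 3 had an unadjusted p under 0.05. ENB1 was higher in rad6-R6Q by 0.41 ± 0.14 (adjusted p 0.053) and was called by DESeq2 (0.41, 0.0351), with the replicate number as a block (0.40, 0.0397) and without rad6-R6Q replicate 2 (0.58, 0.00407), when FRE1 was called too. ARN1 was higher by 1.2002 ± 0.46 (0.0827), with every rad6-R6Q library above every rad6Δ one, and was called with only those groups in the fit (1.201, 0.0358). For rad6-R6A,M10A, with 8.55% of all genes called, 0 of the 9 had an unadjusted p under 0.05 and 0 were called by DESeq2.

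Other genes of iron and copper handling were followed as 5 lists of 34 genes in all, each of which was tested. Of these, 11 were called in at least 4 of the 6 mutants, 9 of them lower and 2 higher, and 13 were called in none. Of all tested genes, 23.1% were called in at least 4, 11.3% lower and 11.6% higher in at least 4, and 36.5% were called in none. Among the regulators, GRX4, which with Grx3 restrains Aft1, fell in all 6 mutants by log2 1.13 to 1.67 (edgeR adjusted p at most 1.91e-05). It went from 170, 131 and 184 CPM in the tagged wild type to 49.2, 50.1 and 53.2 CPM in tagged rad6Δ, and no mutant library overlapped its wild type in any of the 6. GRX3 rose in all 6, by 0.31 to 0.74; the call in untagged rad6Δ was lost without rad6Δ replicate 2 (0.24, adjusted p 0.0865). AFT1 was called in tagged rad6Δ alone (0.68, adjusted p 0.0255), a call lost without tagged wild-type replicate 1 (0.60, 0.0861) or 2 (0.70, 0.0505) or tagged rad6Δ replicate 2 (0.41, 0.202), and its relative AFT2 in none (-0.16 to 0.19).

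Of the metal carriers inside the cell, the mitochondrial iron carriers MRS3 (-1.16 to -0.55) and MRS4 (-0.98 to -0.56) and the vacuolar carrier SMF3 (-0.66 to -0.46) fell in all 6 mutants. CCC1, which moves iron into the vacuole, and COT1, a vacuolar zinc and cobalt transporter, fell in 5 mutants and were not called in H2B-K123R (-0.28 and -0.31). With K. lactis scaling the calls of SMF3 and COT1 in rad6-R6A,M10A and rad6-R6Q, of MRS3 in those and rtf1-108-110AAA, and of CCC1 in those and untagged rad6Δ were lost. Leaving out tagged wild-type replicate 1 also lost the MRS3 and CCC1 calls in these 3 substitution mutants (-0.51 to -0.24, adjusted p 0.0941 to 0.202), and other single libraries did so in part of them. MRS3 in H2B-K123R was lost without untagged wild-type replicate 1 (-0.48, 0.106) or H2B-K123R replicate 3 (-0.54, 0.0779), and MRS4 there without untagged wild-type replicate 3 (-0.47, 0.0584). The low-affinity iron transporter FET4 was called in none (-0.49 to 0.14). Among further genes of the reductive route, the reductase FRE3 fell in all 6 (-1.15 to -0.51), and those calls held in every alternative tried. FRE6 was called lower in 4, and not in untagged rad6Δ (-0.52) or rad6-R6A,M10A (-0.56). Without tagged wild-type replicate 2 or untagged wild-type replicate 1 its 4 calls were lost (-0.64 to -0.42, adjusted p 0.0609 to 0.24). Of 13 alternatives, the FRE6 call was lost in 8 in H2B-K123R, 7 in rtf1-108-110AAA, 5 in tagged rad6Δ and 2 in rad6-R6Q. The vacuolar oxidase FET5 fell in 5 and was not called in rad6-R6Q (-0.23); without tagged or untagged wild-type replicate 1 its calls in rtf1-108-110AAA, H2B-K123R and rad6-R6A,M10A were lost (-0.28 to -0.22, adjusted p 0.0558 to 0.14), and with K. lactis scaling its value in rtf1-108-110AAA became 0.0021. That scaling also lost the FET5 call in rad6-R6A,M10A (-0.10, adjusted p 0.511) and the FRE6 calls in tagged rad6Δ (-0.54, 0.0978) and rtf1-108-110AAA (-0.41, 0.233). CCC2, which loads copper into Fet3, was called in none (-0.28 to 0.04).

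Of the 8 iron-sparing and iron-use genes, 2 fell in tagged rad6Δ, 1 fell in rtf1-108-110AAA and none was called in the other 4 mutants. Of the 3 copper uptake genes, 2 were called higher in H2B-K123R and 1 in each other mutant. These counts in lists of 8 and 3 genes are read as no result. The copper reductase FRE7 was called higher in 5 of 6 mutants, and not in untagged rad6Δ (0.76), but in the table that ignores strand its value was -0.19 in tagged rad6Δ, -0.10 in rad6-R6A,M10A, -0.13 in rad6-R6Q and -0.45 in rtf1-108-110AAA, and it went from 2.08 to 0.49 (adjusted p 0.0467) in H2B-K123R. Without tagged wild-type replicate 1 or 3 the calls in tagged rad6Δ and rtf1-108-110AAA were lost (0.94 to 1.14, adjusted p 0.0596 to 0.0794), and the first also without tagged rad6Δ replicate 2 (0.69, 0.173). TIS11, which destabilises mRNAs of iron-using proteins when iron is scarce, was called in none (-0.20 to 0.52). The number of the 34 called lower and higher was 13 and 3 in tagged rad6Δ, 8 and 2 in untagged rad6Δ, 7 and 4 in H2B-K123R, 8 and 2 in rad6-R6A,M10A, 8 and 5 in rad6-R6Q and 10 and 3 in rtf1-108-110AAA. Of all 5790 genes tested, 1169 were called lower and 1244 higher in tagged rad6Δ, and 1185 and 1291 in untagged rad6Δ. The same numbers were 712 and 809 in H2B-K123R and 764 and 695 in rad6-R6A,M10A. They were 842 and 843 in rad6-R6Q and 729 and 690 in rtf1-108-110AAA. Set beside the shares of all genes called, 16 of 34 compare with 41.7% in tagged rad6Δ, 10 of 34 with 42.8% in untagged rad6Δ, 11 with 26.3% in H2B-K123R, 10 with 25.2% in rad6-R6A,M10A, 13 with 29.1% in rad6-R6Q and 13 with 24.5% in rtf1-108-110AAA. The motif TGCACCC was present upstream of 13 of the 34 (38.2%), FRE3, FRE6, FET5, SMF3, FET4, CCC2 and TIS11 among them, and not of GRX4, GRX3, MRS3 or MRS4.

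**Figure D5:**
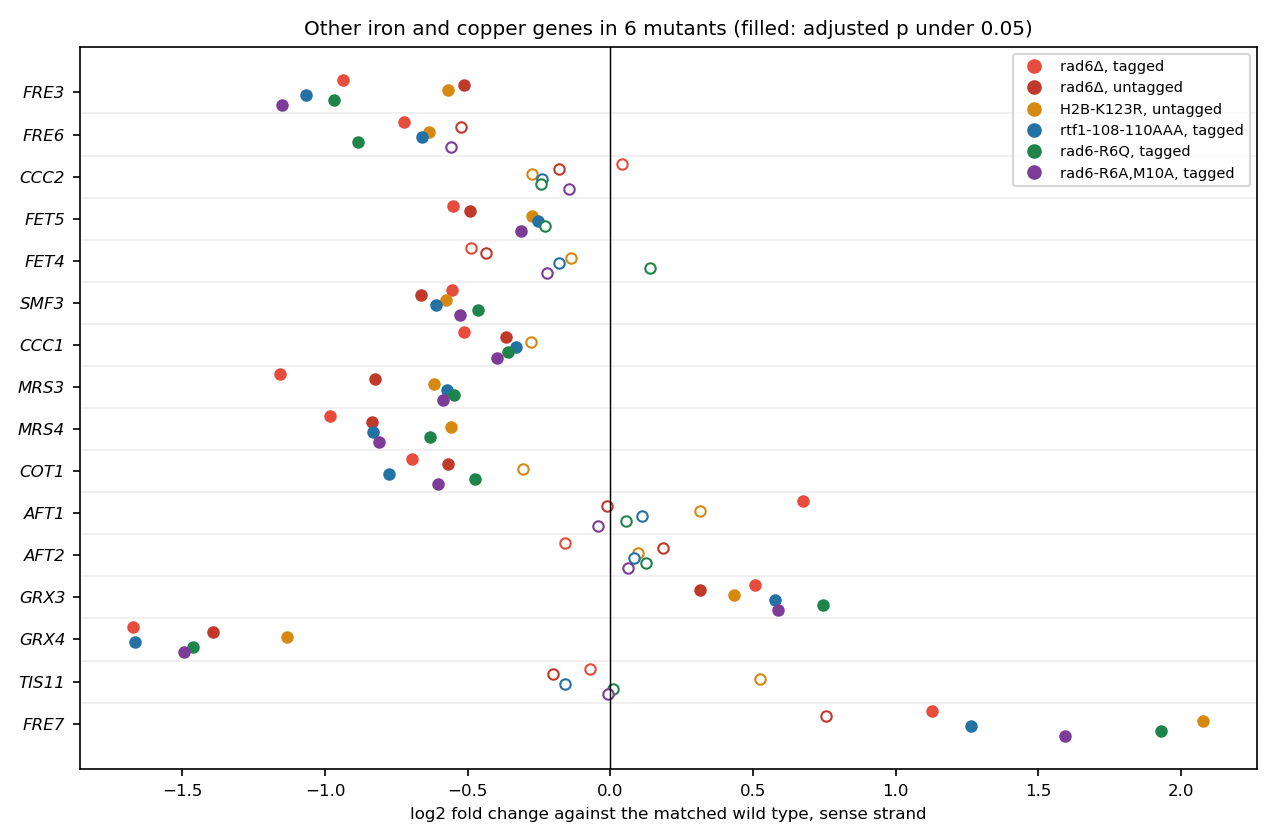
Log2 fold change on the sense strand of 16 other iron and copper genes in 6 mutants against the matched wild type. Filled circles are called at an adjusted p under 0.05; GRX4 lies between -1.67 and -1.13 and GRX3 between 0.31 and 0.74 in all 6 mutants, while AFT2, FET4, CCC2 and TIS11 have open circles only.

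The iron uptake genes did not all share 1 pattern over the strains. Taken as the deviation of the log2 level in each of the 8 group means from the gene's own mean, the Pearson r with the members' mean was 0.97 for ENB1, 0.92 for ARN1, 0.90 for FRE1, 0.88 for SIT1, 0.82 for FTR1, 0.78 for both FET3 and ARN2, 0.47 for FIT3 and -0.29 for FIT2, each gene being part of that mean. The members' mean was highest in the wild types, at 0.36 in each, and lowest at -0.35 in untagged rad6Δ and -0.28 in rtf1-108-110AAA. That mean is over all 10 members, with the untested FIT1 and the scarce FIT3 weighted like the others. In rtf1-108-110AAA FIT1 had 4 and FIT3 10 sense counts over 3 libraries, so the order of the groups rests in part on genes near the floor. Among 5781 other tested genes, the 5 most like this mean over the 8 groups were HTD2 (r 0.965), YJL213W (0.964), HEM2 (0.958), RCE1 (0.958) and YFT2 (0.957). HEM2 encodes an enzyme of heme synthesis, and whether the 5 genes share a link to iron was not tested. With 8 points and this many candidates these values are a description, and the range of HTD2 over the groups was 0.31 on the log2 scale.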

How the data were processed

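The authors deposited raw counts per gene, per the file headers, for the sense strand, the antisense strand and both strands together of S. cerevisiae, and for K. lactis. STAR 2.7.5a, featureCounts, DESeq2 and the builds R64 and sacCer3 are named in the submitters' processing notes, with no role given. Per the labels' protocols, ribosomal RNA was depleted and libraries were directional. Columns were matched to samples by title.

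All 24 libraries and 8 group means were fitted with edgeR 4.0.16 in R 4.3.3 (TMM, filterByExpr, robust quasi-likelihood F test, Benjamini-Hochberg adjustment over all genes tested, called under 0.05). Antisense counts used the sense library sizes. Standard errors were derived from the fold change and F value and are approximate. Sense totals of 7227245 or more per library leave FIT1 and FIT3, at most 14 counts, imprecise. DESeq2 1.42.0, scaling to K. lactis counts, other filters, fits of compared groups alone and leaving out each library were alternatives; antisense alternatives, and those for other iron genes, were chosen after seeing the data. Same-numbered replicates deviated together, with every correlation over 0.1, in 3 of 11 comparisons. These were tagged rad6Δ and rad6-R6Q, each against the tagged wild type, and rad6-R6Q against tagged rad6Δ. The replicate block is printed there only for some genes whose call or sign it changed. All main values and their adjusted p are from the fit without a block. Motifs and copies were searched in RefSeq R64 (BLAST+ 2.17.0, Python 3.11.15), which is the build the notes name. Gene identifiers matched RefSeq for 5897 of 6571.

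The members, the lists and the tests were chosen with earlier results of these data known. All members are named in every comparison. Other genes are named when called in at least 4 of 6 mutants, with AFT1, AFT2, FET4, TIS11 and CCC2 whatever their values, and the 5 genes most like the members' mean.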

Additional observations from a re-analysis of the deposited data

Results flagged for a closer look

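ARN2 responded differently to the untagged rad6Δ and H2B-K123R strains, which share the untagged wild type as control. The direct test between them gave a log2 difference of 0.58 with H2B-K123R higher (edgeR adjusted p 0.00803, 3 libraries against 3, no overlap). ARN2 was called lower than wild type in untagged rad6Δ and not in H2B-K123R. The difference was 0.38 with K. lactis scaling and not called (adjusted p 0.0543).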

How the results depend on the processing

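Of 1033 alternative values for 81 results on single iron uptake genes, 913 kept their direction and their side of the threshold, 65 lost a call, 29 gained one and 26, in 9 results that were never called, changed sign; for the other iron genes 699 of 793 were unchanged, 89 lost a call and 5 changed sign. The 1033 values include those of antisense ENB1, whose test is not read here. Alternatives for antisense and other iron genes were chosen after seeing the data, and the cause of each change was not tested. Leaving out 1 library gave 2 to 4 sense calls in H2B-K123R, 2 to 5 in rad6-R6A,M10A, 1 to 3 in rad6-R6Q, 2 to 4 in rtf1-108-110AAA, 0 to 1 between the wild types, and 0 to 2 for rtf1-108-110AAA or for rad6-R6Q against tagged rad6Δ. On the antisense strand, the FET3 call held in all 12 alternatives in each of the 6 mutants, as did those of FIT2 and FRE1 in untagged rad6Δ. The antisense SIT1 call was lost in 9 of 12 alternatives in tagged rad6Δ and in 4 of 12 in untagged rad6Δ. K. lactis scaling gave 1 sense call in rad6-R6Q and 0 between the wild types and between H2B-K123R and untagged rad6Δ, where DESeq2 gave 2. For rad6-R6Q against tagged rad6Δ, the replicate block, median-of-ratios factors, DESeq2, K. lactis scaling, unstranded counts and fitting the compared groups alone gave 1 call each. Counts of antisense calls under the alternatives are not given, because they include ENB1. Signs changed with K. lactis scaling for SIT1 in tagged rad6Δ (0.0523), FRE1 in H2B-K123R (-0.0646), FIT2 in rtf1-108-110AAA (0.177), FIT3 and FTR1 in rad6-R6Q (0.0735 and 0.0719), FIT3 in rad6-R6A,M10A (0.0743) and FET5 in rtf1-108-110AAA (0.0021). FRE1 in H2B-K123R was -0.0171 with unstranded counts and -0.0287 with the replicate block. SIT1 in rad6-R6Q was -5e-04 with median-of-ratios factors, -2e-04 by DESeq2, -0.0125 unstranded and -0.0254 with the replicate block. FRE7 with unstranded counts was -0.189 in tagged rad6Δ, -0.0954 in rad6-R6A,M10A, -0.1297 in rad6-R6Q and -0.4512 in rtf1-108-110AAA. Leaving out 1 library gave -0.3673 to 0.8294 for FIT3 and -0.4948 to 0.235 for FRE1 in H2B-K123R, -0.2566 to 0.1895 for FIT2 in rtf1-108-110AAA, -0.4062 to 0.0756 for FIT3 and -0.1574 to 0.2324 for SIT1 in rad6-R6Q, and -0.0429 to 0.4033 for FIT2 and -0.3933 to 0.0744 for FIT3 in rad6-R6A,M10A. In comparisons whose numbers do not pair the samples, the block added calls of SIT1 in untagged rad6Δ (-0.48, edgeR adjusted p 0.0398) and FET3 in rtf1-108-110AAA (-0.92, 0.0367); 17 of 24 libraries correlated best with their own number, with same-number correlations from -0.4188 to 0.5171. FIT1, FIT3 and most antisense counts are limited by depth.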
